A study of Rattus norvegicus with 32 samples.

Results

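A set of 4 genes was followed across the hippocampus of 32 rat pups, the lipoxygenase gene Alox15 and the red blood cell genes Hbb, Alas2 and Slc4a1. These are 4 of the 32883 genes in the deposited count table, found there by gene name. They were picked for their pattern across these same libraries, so their levels in the groups, their ratios and their correlations are given below as a description. Where the number of them called by a fit is given beside that of all genes, nothing is read from it. How many other genes keep the groups apart as fully was not counted, so nothing is read from groups that do not overlap either. RNA from 1 hippocampus per pup, all of the wild-type genotype, was sequenced. The dams of the iron-deficient (ID) groups ate a purified diet with 3 to 6 ppm iron from day 3 of gestation to postnatal day 7. The other dams formed the iron-sufficient (IS) groups, whose diet the labels do not describe. Intranasal insulin was given to pups of the IS insulin and ID insulin groups 2 times a day from postnatal day 8 to 21. There were 8 IS control, 9 ID control, 7 IS insulin and 8 ID insulin libraries. The labels name postnatal days 7 and 21 for collection without saying which applies to a sample. The litter of a pup and what the control pups received through the nose are not stated. P-values therefore measure the spread between these pups, which may share litters. Each sample title opens with a number of unknown meaning, which is shared by all libraries of a group. ID control alone has a pair of them, 69 in 5 titles and 70 in 4. A difference between groups and a difference between these numbers cannot be told apart outside ID control.

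A red blood cell matures through the reticulocyte, which has lost its nucleus but keeps messenger RNA for a short time. Alox15 encodes a lipoxygenase that oxidizes polyunsaturated fatty acids, holds a non-heme iron atom, and was first studied in reticulocytes, where it acts on organelle membranes. The same gene is also expressed in eosinophils and some macrophages. Hbb encodes an adult beta-globin chain of haemoglobin. Alas2 encodes the red cell form of the enzyme that starts heme synthesis, and in other mammals its translation depends on iron through an iron-responsive element. Slc4a1 encodes band 3, the anion exchanger of the red cell membrane. Tissue taken without washing out the vessels contains blood, and the labels do not mention such a wash. In bulk tissue, fewer cells of a type and less RNA per cell cannot be told apart.

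Transcription in red cell precursors runs through GATA1, which binds GATA motifs, and KLF1, which binds CACC motifs. Because the globin transcripts vary together below, the 250 bases before the gene start are shown for some globin genes. These are the beta-globin genes Hbb and Hbb-bs and the alpha-globin gene Hba-a2, beside the membrane gene Epb42. The sequences are from RefSeq (assembly GRCr8), which differs from the build of the counts. Capitals mark each GATA motif (A or T, then GATA, then A or G) and each CACC motif (CCACACCC or CCACGCCC, and also CCCCACCC or CCTCACCC), read on both strands.
Hbb at chr1:167663722-167663971, minus strand: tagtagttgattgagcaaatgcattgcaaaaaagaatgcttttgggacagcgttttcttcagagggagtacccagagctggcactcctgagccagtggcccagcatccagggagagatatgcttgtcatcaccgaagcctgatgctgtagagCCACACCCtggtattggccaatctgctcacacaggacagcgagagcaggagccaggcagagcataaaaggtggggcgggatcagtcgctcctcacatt
Hbb-bs at chr1:167631631-167631880, minus strand: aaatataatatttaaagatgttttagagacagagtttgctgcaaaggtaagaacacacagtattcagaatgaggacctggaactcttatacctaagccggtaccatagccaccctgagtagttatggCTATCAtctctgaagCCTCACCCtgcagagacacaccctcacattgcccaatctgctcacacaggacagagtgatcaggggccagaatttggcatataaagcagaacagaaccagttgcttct
Hba-a2 at chr10:15829139-15829388, minus strand: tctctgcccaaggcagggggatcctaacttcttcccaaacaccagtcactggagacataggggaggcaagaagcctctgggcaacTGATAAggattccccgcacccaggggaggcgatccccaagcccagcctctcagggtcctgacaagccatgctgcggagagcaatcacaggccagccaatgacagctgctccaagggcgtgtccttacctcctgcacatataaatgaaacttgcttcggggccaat
Epb42 at chr3:128451684-128451933, minus strand: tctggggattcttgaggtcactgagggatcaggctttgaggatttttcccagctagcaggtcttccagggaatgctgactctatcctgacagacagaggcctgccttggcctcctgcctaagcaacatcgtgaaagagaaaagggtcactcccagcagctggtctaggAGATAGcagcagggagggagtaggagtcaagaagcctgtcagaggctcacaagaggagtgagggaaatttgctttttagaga

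The Hbb window held 1 CACC motif and no GATA motif, Hbb-bs held 1 of each, and Hba-a2 and Epb42 held 1 GATA motif. Windows at the gene start were in the RefSeq table for 13 genes among the 4 and the red cell list described below, some of them near-identical globin copies. A GATA motif was found in 10 of these 13 and a CACC motif in 5. Over all 33469 windows of the same length in the table, 27.0% held a GATA motif and 15.8% a CACC motif. Those windows include starts inside a gene. The 13 were kept from 28 matched windows, the others starting further inside the gene model, so the sets differ in kind. A match is a run of letters, not a site shown to be bound. Alox15 and Slc4a1 are not shown.

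Libraries held 19619345 to 28062630 counts, and 15439 genes had enough counts to be tested. Levels are CPM, counts relative to library totals scaled by the TMM method and put on a common size, and they are compared between libraries, not between genes. Where 4 group values stand in a row, their order is IS control, ID control, IS insulin, ID insulin. Hippocampal neuron markers were present in every library, for example Prox1, a marker of dentate granule cells, at 61.8 to 135 CPM. Their summed level was 1573 to 2379 CPM. Pineal markers summed to at most 697 CPM in ID control and 131 CPM in ID insulin, with medians of 0.405 and 0.404 CPM. ID insulin replicates 3 and 5, which an earlier reading of these data set apart, had 2 of the 3 highest Alox15 levels, and results are given with and without them.

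Alox15 (ENSRNOG00000019183) was lowest in IS control and highest in ID insulin. Its level was 65.0 ± 30.9 CPM (SD, n = 8) in IS control, with a lowest, median and highest library of 35.6, 53.4 and 134 CPM. In IS insulin it was 83.3 ± 56.3 CPM (n = 7), from 52.2 through a median of 62.9 to 210 CPM. In ID control it was 120 ± 44.6 CPM (n = 9), from 75.1 through a median of 111 to 227 CPM. The 3 groups overlapped, each having 1 library far above its others. In ID insulin, Alox15 was 279 ± 125 CPM (n = 8), from 137 through a median of 271 to 415 CPM. All 8 ID insulin libraries lay above every IS control library, and 4 of 8 lay above every ID control library. The ID insulin libraries fell into 4 at 353 to 415 CPM and 4 at 137 to 188 CPM, with none between.

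Hbb (ENSRNOG00000058105) was at 470 ± 213 CPM in IS control, with a lowest, median and highest library of 282, 419 and 957 CPM. In ID control it was 521 ± 159 CPM, from 350 through 502 to 892 CPM, and in IS insulin 632 ± 235 CPM, from 463 through 588 to 1142 CPM. In ID insulin it was 1117 ± 580 CPM, and its libraries spread from 347 through 1036 to 2056 CPM. Here the groups overlapped throughout. In ID insulin, 4 of 8 libraries were above every library of the other groups and 1 was below every ID control library.

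Alas2 (ENSRNOG00000000167) had a mean of 17.0 ± 6.78 CPM in IS control, with a lowest, median and highest library of 11.97, 14.0 and 32.1 CPM. It was 21.3 ± 7.27 CPM in ID control (13.04, 20.4 and 38.2 CPM) and 21.6 ± 9.01 CPM in IS insulin (14.6, 19.8 and 41.1 CPM). ID insulin stood at 47.2 ± 19.6 CPM (21.7, 45.1 and 74.2 CPM), with 6 of 8 libraries above every IS control library. Slc4a1 (ENSRNOG00000020951) had close means in 3 groups, at 12.7 ± 7.08 CPM in IS control (7.33, 9.90 and 28.8 CPM), 13.3 ± 6.06 CPM in ID control (7.07, 14.8 and 26.2 CPM) and 13.04 ± 8.51 CPM in IS insulin (6.22, 10.998 and 31.7 CPM). In ID insulin it was 32.5 ± 15.0 CPM (16.6, 30.7 and 54.7 CPM). For both genes 4 of 8 ID insulin libraries lay above every ID control library.

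**Figure D1:**
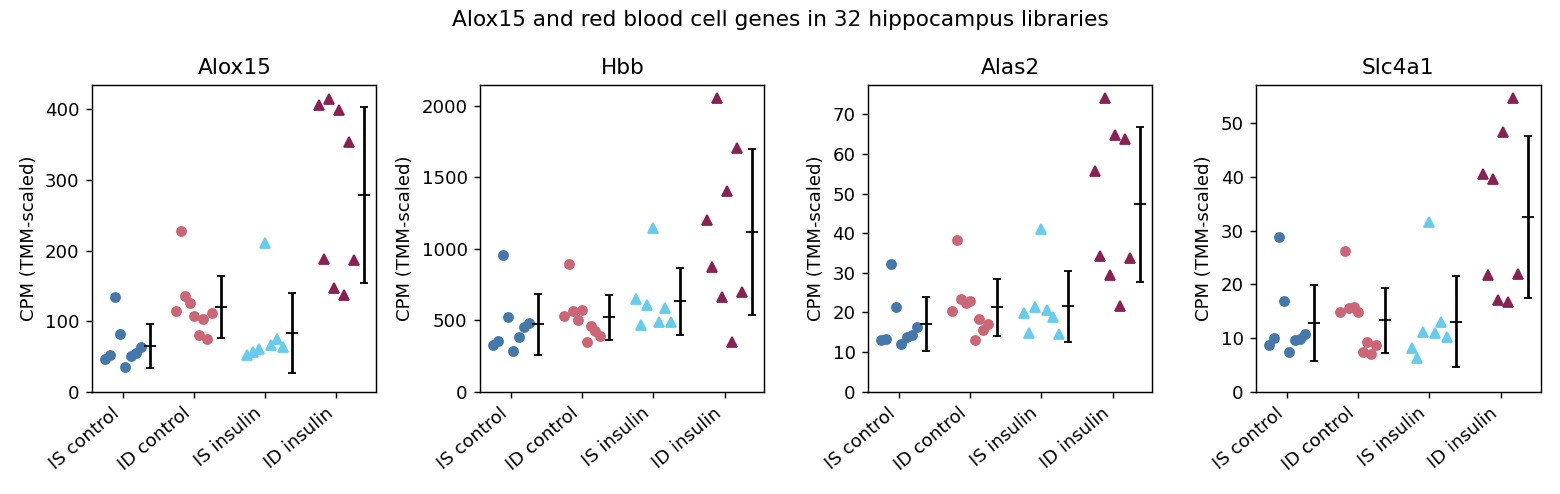
CPM (vertical axis, linear, from 0) of Alox15, Hbb, Alas2 and Slc4a1 in each of 32 libraries by group, circles for control and triangles for insulin, with the mean and SD beside each group. In all 4 panels ID insulin has the highest mean and the widest spread, and IS control, ID control and IS insulin each have 1 library well above their others.

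ID control was set beside IS control to ask what the maternal diet alone went with. The log2 fold change of Alox15 was 0.88 (SE 0.29), against 0.15 (SE 0.26) for Hbb, 0.30 (SE 0.25) for Alas2 and 0.03 (SE 0.33) for Slc4a1. None of the 4 passed an adjusted p of 0.05 in edgeR's quasi-likelihood test, where 45 of 15439 genes (0.291%) did. In ID insulin against ID control the log2 fold changes were close to each other, 1.22 (SE 0.29) for Alox15, 1.10 (SE 0.26) for Hbb, 1.15 (SE 0.24) for Alas2 and 1.30 (SE 0.31) for Slc4a1. All 4 were among the 589 genes called there (3.82% of those tested). That count is a description, because the genes were chosen on these values.

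Insulin in iron-sufficient pups went with smaller values. IS insulin against IS control gave log2 fold changes of 0.36 (SE 0.31) for Alox15, 0.43 (SE 0.28) for Hbb, 0.33 (SE 0.27) for Alas2 and 0.02 (SE 0.35) for Slc4a1, with none of the 4 among the 19 genes called (0.123%). Between the diets under insulin, ID insulin against IS insulin, Alox15 had the largest of the 4 values at 1.74 (SE 0.32), then Slc4a1 at 1.31 (SE 0.33), Alas2 at 1.13 (SE 0.26) and Hbb at 0.82 (SE 0.28). There 378 genes were called (2.45%), among them Alox15, Alas2 and Slc4a1. The interaction of diet and insulin was 0.86 (SE 0.42) for Alox15, 0.68 (SE 0.38) for Hbb, 0.82 (SE 0.36) for Alas2 and 1.28 (SE 0.47) for Slc4a1, and none of the 4 was among the 145 genes called (0.939%). Without ID insulin replicates 3 and 5, the ID insulin against ID control values were 0.98 for Alox15, 0.81 for Hbb, 0.91 for Alas2 and 1.12 for Slc4a1, and 1 of the 4, Alas2, was among 358 genes called. With the ID control libraries of title number 69 alone, the values were 0.97 for Alox15, 0.86 for Hbb, 0.88 for Alas2 and 0.89 for Slc4a1, and 0 of the 4 were among 150 genes called. With those of number 70 alone they were 1.59, 1.45, 1.55 and 2.00 in the same order, and all 4 were among 232 genes called. These comparisons share control libraries, so they are not independent of each other.

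Alox15 followed the red cell genes over the 32 libraries, and less evenly within some groups. Over 32 libraries the Pearson correlation of its log2 CPM was 0.94 with Alas2, 0.91 with Slc4a1 and 0.85 with Hbb (Spearman's rho 0.91, 0.85 and 0.75). With the mean of each group removed, the correlations were 0.94 with Slc4a1, 0.94 with Alas2 and 0.89 with Hbb (rho 0.93, 0.90 and 0.87). All points share the library scaling. Within groups, r with Hbb was 0.98, 0.89, 0.87 and 0.91. In IS insulin this rested on replicate 4, without which r was -0.14 (n = 6), and rho over the 7 was 0.25. In ID control r with Hbb was 0.68 without replicate 2 (n = 8) and 0.53 without the 2 libraries farthest from the median (n = 7, rho 0.43 in place of 0.70). With Slc4a1, r was 0.98, 0.91, 0.95 and 0.95 in the same order (rho 0.98, 0.93, 0.86 and 0.74). In IS insulin r with Slc4a1 was 0.79 without replicate 4 (n = 6, rho 0.77) and 0.94 without the 2 farthest libraries. The 4 ID insulin libraries with most Alox15 had 415, 407, 399 and 353 CPM of it. Slc4a1 ran the other way in these, at 39.5, 40.5, 48.4 and 54.7 CPM. In the other 4 it rose with Alox15, from 16.6 to 21.9 CPM. With Alas2, r was 0.98, 0.94, 0.88 and 0.97, falling to 0.10 in IS insulin without replicate 4. Among the red cell genes, r after group means were removed was 0.96 between Hbb and Alas2, 0.94 between Alas2 and Slc4a1 and 0.87 between Hbb and Slc4a1. In IS insulin without the 2 farthest libraries these were 0.62, 0.07 and -0.26 (n = 5).

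**Figure D2:**
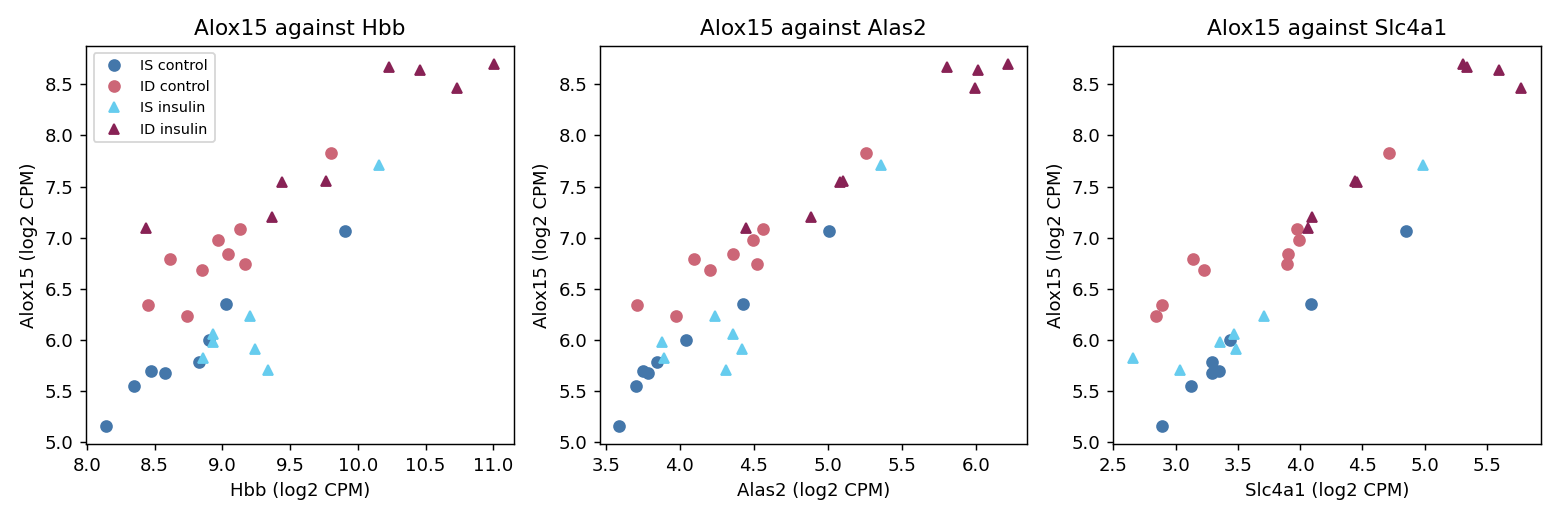
Log2 CPM of Alox15 (vertical) against log2 CPM of Hbb, Alas2 and Slc4a1 (horizontal), 1 point per library, 32 libraries, coloured by group. Points rise together in each panel (r of 0.85, 0.94 and 0.91), and at a given Hbb level the ID libraries lie above the IS libraries.

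Relative to Hbb, Alox15 was higher in the iron-deficient pups. There were 13.7 ± 1.13 Alox15 reads per 100 Hbb reads in IS control (SD, n = 8, from 12.1 to 15.6) and 22.9 ± 3.33 in ID control (n = 9, from 17.6 to 28.2). In IS insulin there were 12.5 ± 3.22 (n = 7, from 8.09 to 18.4) and in ID insulin 26.7 ± 6.95 (n = 8, from 20.2 to 39.4). Every ID control library lay above every IS control library, and every ID insulin library above every IS insulin library. How many ratios of other genes separate these groups as fully was not counted. The ratio of the group means was 1.67 between the control groups and 2.12 between the insulin groups. Leaving out any 1 library kept these between 1.62 and 1.72, and between 1.98 and 2.30. Without ID insulin replicates 3 and 5 the second was 2.19. Inside ID control the ratio was 23.0 ± 2.83 for title number 69 and 22.8 ± 4.35 for title number 70. Between insulin and control the ratio of group means was nearer 1, at 1.16 for the ID groups and 0.914 for the IS groups.

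The same reads set against the other red cell genes gave the same order of the diets. Alox15 reads per 100 Alas2 reads were 374 ± 34.9, 563 ± 59.2, 371 ± 87.3 and 586 ± 71.5 over the groups. Per 100 Slc4a1 reads they were 522 ± 44.2, 953 ± 189, 651 ± 121 and 866 ± 123. Inside ID control the Slc4a1 ratio differed by title number, at 806 ± 62.7 for 69 and 1137 ± 92.5 for 70 with no overlap, while the Alas2 ratio was 552 ± 48.8 and 578 ± 75.3. All 9 ID control libraries lay above all IS control libraries by either measure, while under insulin 7 of 8 did so for Alas2 and 2 of 8 for Slc4a1. On a log2 scale with a common slope on Hbb of 0.93 (SE 0.09), the offset of Alox15 was 0.74 (SE 0.14) for ID control over IS control and 1.14 (SE 0.16) for ID insulin over IS insulin. The offset for IS insulin over IS control was -0.13 (SE 0.15). Set against Alas2 and Slc4a1 in the same way, the offset of Alox15 for ID insulin over IS insulin was 0.57 (SE 0.14) and 0.62 (SE 0.13). For IS insulin over IS control it was -0.07 (SE 0.11) against Alas2 and 0.30 (SE 0.11) against Slc4a1.

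Set against Hbb, Alas2 and Slc4a1 had close means in the control groups and higher means in ID insulin than in IS insulin. Alas2 reads per 100 Hbb reads were 3.70 ± 0.388, 4.06 ± 0.281, 3.39 ± 0.416 and 4.52 ± 0.840 over the groups. Slc4a1 reads per 100 Hbb reads were 2.66 ± 0.368, 2.47 ± 0.496, 1.963 ± 0.534 and 3.12 ± 0.853 in that order. The ratio of the group means between the control groups was 1.10 for Alas2 and 0.930 for Slc4a1, where Alox15 per Hbb had 1.67. The ID control mean of Slc4a1 per Hbb covers a split by title number. It was 2.85 ± 0.206 (2.58 to 3.14) for 69 and 1.995 ± 0.240 (1.66 to 2.22) for 70, with no overlap. For Alas2 per Hbb these were 4.16 ± 0.241 and 3.93 ± 0.305. Between the insulin groups the ratio of the group means per Hbb was 1.33 for Alas2 and 1.59 for Slc4a1. Alox15 had 1.58 per Alas2 and 1.33 per Slc4a1. Other red cell genes were not uniformly higher. Per Hbb, the list ran from 0.521 (Art4) to 1.34 (Trim10), both at low levels. The Hba-a2 rows were at 0.803 and 0.915, Hba-a3 at 0.676, Ahsp at 1.01 and Rhd at 1.13. Hbbl1 was at 0.576. On the log2 scale with a common slope on Hbb, the offset for ID insulin over IS insulin was 0.50 (SE 0.09) for Alas2 and 0.67 (SE 0.19) for Slc4a1. For IS insulin over IS control it was -0.06 (SE 0.08) for Alas2 and -0.47 (SE 0.18) for Slc4a1. Another beta-globin gene, Hbb-bs, stayed near 71.9, 73.5, 71.3 and 73.8 reads per 100 Hbb reads. The way the authors assigned reads that fit several places is not given in the sources used here, so values of near-identical globin copies are uncertain.

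**Figure D3:**
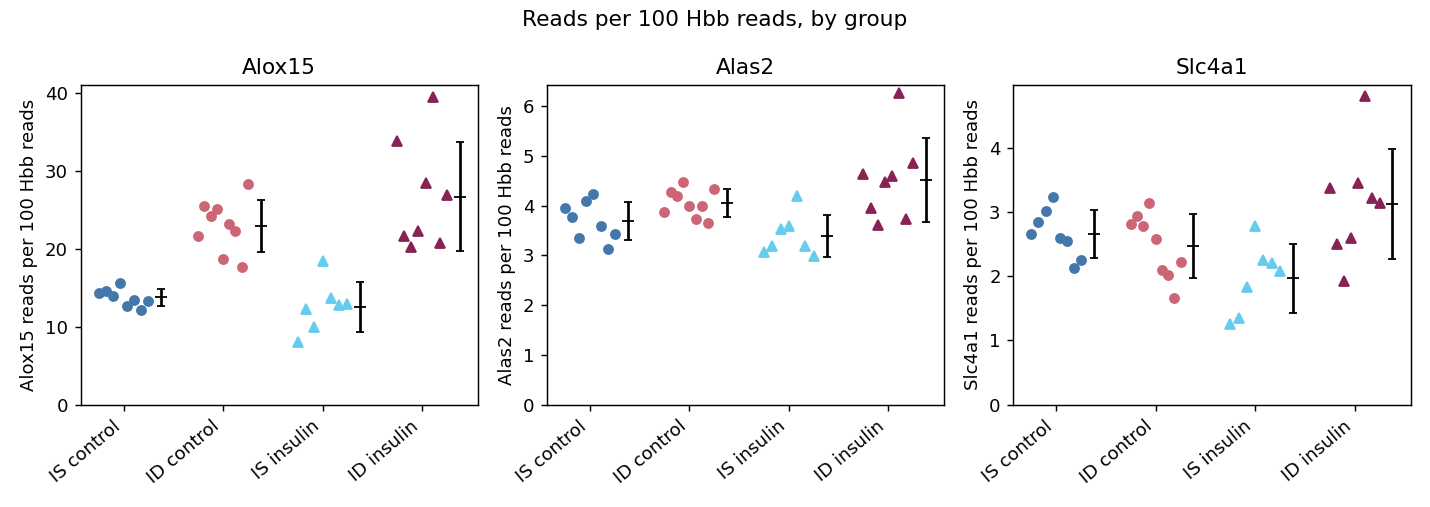
Reads of Alox15, Alas2 and Slc4a1 per 100 Hbb reads (vertical axis, linear, from 0) by group, 1 point per library with the mean and SD beside each group. For Alox15 all ID control libraries (17.6 to 28.2) lie above all IS control libraries (12.1 to 15.6), while the Alas2 and Slc4a1 panels overlap between the diets.

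Other red cell genes were read from the same fit. They were measured in the libraries on which the 4 were picked and varied with them, so the calls below are no independent support for the pattern of the 4. The list named 34 genes of globin, the haemoglobin chaperone, the red cell membrane, late red cell development and red cell transcription factors, of which 26 rows had any count and 17 had enough to be tested. In ID insulin against ID control 5 of the 17 rose and 0 fell (median log2 fold change 0.70, against 0.00390 over all genes tested). The 5 were Hbb-bs, Ahsp, Trim10, Kel and Rhd. Hbb-bs had a mean of 818 CPM in ID insulin and 381 CPM in ID control, a log2 fold change of 1.10 (SE 0.25, adjusted p = 0.0105 in edgeR's quasi-likelihood test). Ahsp, which encodes the chaperone of free alpha-globin, had means of 4.07 and 1.87 CPM, a log2 fold change of 1.09 (adjusted p = 0.0333 by edgeR). Kel and Rhd, genes of red cell surface blood group proteins, had log2 fold changes of 0.99 and 1.02 (adjusted p = 0.0103 and 0.0206 by edgeR). Trim10, a ubiquitin ligase gene of late red cell development, had means of 0.812 and 0.281 CPM, a log2 fold change of 1.49 (adjusted p = 0.0215 by edgeR), close to the detection limit.

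The genes that did not pass included the more abundant Hba-a2 row at 0.75 (SE 0.24, adjusted p = 0.0709 by edgeR) and its second row at 0.47. They also included Epb42, which encodes a band 3 binding protein, at 0.81 (SE 0.30). Ank1 and Sptb, whose products tether band 3 to the red cell skeleton and which brain cells also express, were at 0.17 and -0.03. Without ID insulin replicates 3 and 5 the count was 0 of 17, and with title number 69 alone as ID control it was 0.

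In ID insulin against IS insulin 1 of the 17 rose, Rhd (log2 fold change 0.98, SE 0.27, adjusted p = 0.047 by edgeR), with a median of 0.57 against -0.000571 over all genes. Without ID insulin replicates 3 and 5 this count was 0, and it held at 1 in 7 of 32 fits that each left out 1 library, the others giving 0 to 3. In ID control against IS control 0 of 17 passed edgeR's test in either direction (median -0.07 against 0.00512), where 1830 genes had an unadjusted p under 0.05, and DESeq2 also gave 0. In IS insulin against IS control 0 passed (median 0.19 against 0.0112), with 2515 genes at an unadjusted p under 0.05 and 0 by DESeq2. The interaction gave 0 by edgeR (median 0.62 against -0.0122), with 2646 such genes, and 1 by DESeq2, Ank1, which was also called without ID control replicate 1 and without ID insulin replicate 3.

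Embryonic globins were scarce, while genes of the red cell transcription factors differed in level. Hbg1 had no count in any library, and Hbe1, Hbe2 and Hbz had at most 3 counts per library. Gata1, which encodes the transcription factor of red cell precursors, had 0 counts in all 32 libraries. Klf1 was at 0.915 to 1.18 CPM in the group means, with a log2 fold change of 0.03 (SE 0.20) for ID insulin over ID control. Lmo2, Zfpm1 and Tal1, whose products act with GATA1 and which other cell types also express, had group means of 24.9 to 27.4, 9.93 to 12.05 and 3.37 to 3.64 CPM, and 0 of 5 tested genes of this list were called in any of the 5 comparisons by edgeR. Of 11 tested genes of heme synthesis outside Alas2, 0 passed in any of the 5 comparisons by edgeR. Alas1, which encodes the form of the first enzyme used outside red cells, was at 45.0, 48.8, 47.3 and 46.6 CPM over the groups. Of 15 tested late red cell genes, most of which brain cells also express, Trim10 was the 1 called in ID insulin against ID control, and Epb41 was the 1 called in ID insulin against IS insulin (log2 fold change 0.52, adjusted p = 0.041 by edgeR).

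Other lipoxygenase genes had low counts, and 1 gene of the eicosanoid list was called. Alox5 was at 3.02, 2.96, 2.87 and 2.74 CPM over the groups, and Alox12 at 0.544, 0.635, 0.738 and 0.844 CPM. Alox15b had at most 9 counts and Alox12e at most 4 counts in a library. Of 18 tested genes of this list, 0 rose and 1 fell in ID insulin against ID control. That gene was Ptgds, the prostaglandin D synthase gene that is also abundant in the meninges, with 437 CPM in ID insulin and 971 CPM in ID control, a change of -1.15 on the log2 scale (SE 0.29, adjusted p = 0.0221 by edgeR). The correlation with Alox15 after removing group means had a median of -0.00131 over the 18, near the median of -0.000836 over all 15438 genes ranked.

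The genes most like Alox15 were mostly red cell genes. Over 32 libraries Alas2 ranked first and Slc4a1 second of 15438 genes by Pearson's r. Named genes next in order were Cdc25b (r of 0.86), Rsad2 (0.86), Rhd (0.85), Hbb (0.85), Hbb-bs (0.85), Hba-a2 (0.85), Ybx3 (0.80) and Rbm38 (0.79). With group means removed the order began with Slc4a1, Alas2 and Cdc25b (0.94), followed by Hbb (0.89), both Hba-a2 rows (0.88), Rsad2 (0.88), Ybx3 (0.86), Hbb-bs (0.84) and Rbm38 (0.84). Cdc25b encodes a cell cycle phosphatase, Rsad2 the antiviral protein viperin, Ybx3 a cold shock domain protein and Rbm38 an RNA-binding protein. Of the 17 tested red cell list genes, 12 had r over 0.5 after group means were removed, against 81 of 15438 genes in all. Ank1, Ermap and Sptb were at 0.14, 0.16 and -0.06.

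**Figure D4:**
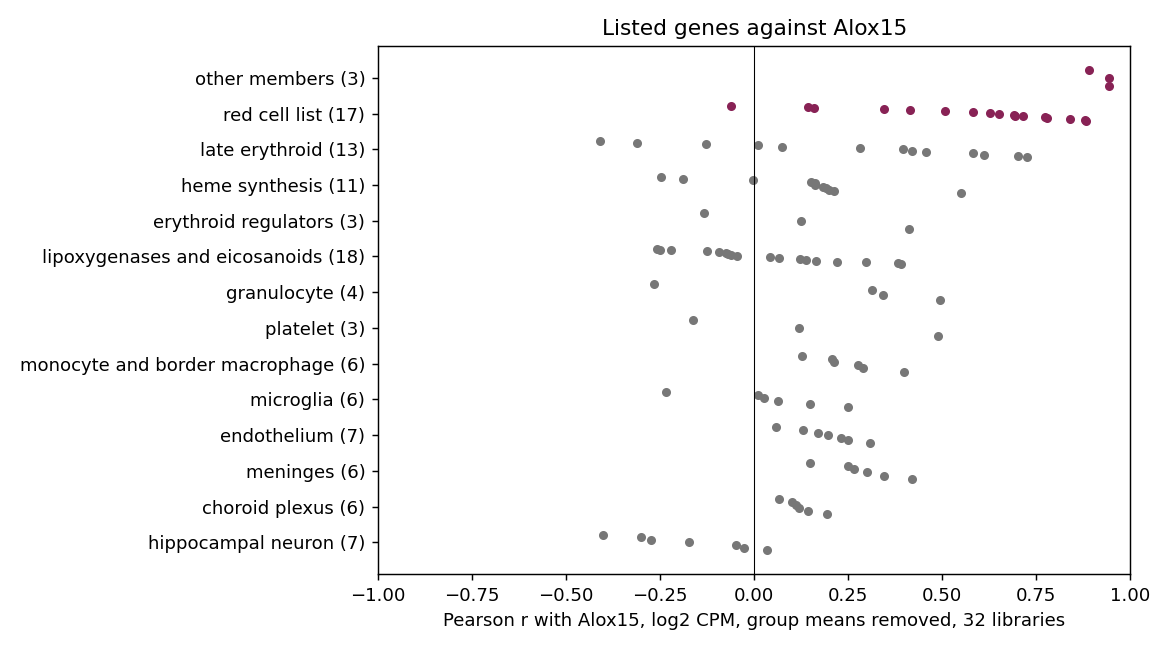
Pearson r of log2 CPM with Alox15 after removing group means, over 32 libraries (horizontal axis, -1 to 1), 1 point per tested gene, with lists and their number of tested genes on the vertical axis. The 3 other members (0.89 to 0.94) and most red cell list genes lie to the right, while lipoxygenases and eicosanoid genes and the markers of other cell types centre nearer 0.

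Among markers of other cells that may hold Alox15 RNA or come with blood, granulocyte and platelet genes were low and macrophage genes were not. The summed level of 13 granulocyte genes was 4.34 to 10.95, 4.45 to 8.08, 4.68 to 6.90 and 4.49 to 9.61 CPM over the groups. The eosinophil genes Epx and Il5ra had at most 2 and 3 counts in a library, and Prg2 at most 16. The summed level of 7 platelet genes was 2.14 to 4.40, 1.65 to 4.98, 1.88 to 3.19 and 2.77 to 4.92 CPM in the same order. The summed level of 7 monocyte and border macrophage genes was 52.8 to 87.4, 65.6 to 85.1, 55.5 to 81.9 and 52.9 to 83.3 CPM, most of it from the lysozyme gene Lyz2, which microglia also express, with group means of 39.5 to 46.0 CPM. Of 4 tested granulocyte genes, 3 platelet genes and 6 monocyte and border macrophage genes, 0 were called in any of the 5 comparisons by edgeR. Their part in the Alox15 level was not tested.

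Markers of tissue at the edge of the hippocampus moved in the same comparison. In ID insulin against ID control 4 of 6 tested meningeal genes fell, with Slc6a13 at -0.74, Aldh1a2 at -0.80, Col1a1 at -0.61 and Bgn at -0.43 (log2 fold change, adjusted p = 0.0205, 0.0198, 0.0205 and 0.00737 by edgeR). The summed meningeal level was 228 to 462 CPM in ID control and 175 to 260 CPM in ID insulin. Of the markers of blood vessels, the endothelial gene Cdh5 fell by 0.37 there (adjusted p = 0.0443), and the tight junction gene Ocln rose by 0.52 in ID control over IS control (adjusted p = 0.0061). Wfs1, a marker of CA1 neurons, and the microglial gene Tmem119 fell by 0.38 and 0.28 in ID insulin against ID control (adjusted p = 0.0257 and 0.0275 by edgeR). Choroid plexus markers had a median log2 fold change of 1.24 in ID control over IS control with 0 of 6 called, and their summed level was 16.1 to 3237, 1165 to 5461, 25.7 to 4255 and 311 to 5913 CPM over the groups. Over 32 libraries their mean level had r of 0.43 with Alox15. Within groups r was 0.12 (permutation p = 0.559, adjusted p = 0.800). The part of these tissues in the red cell genes' values was not tested.

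Alox15 and the red cell mean, the mean log2 CPM of the tested red cell list, were compared with 11 measures of each library that were not used to choose the genes. These were depth, the mitochondrial share, the Y-linked level and the mean levels of the marker lists. None of the 22 correlations passed Benjamini-Hochberg adjustment in a permutation test within groups (100000 draws, two-sided). The strongest were the red cell mean with granulocyte genes (Pearson's r of 0.46, permutation p = 0.0253, adjusted p = 0.383; rho 0.27, adjusted p = 0.612) and Alox15 with meningeal genes (r of 0.38, permutation p = 0.0348, adjusted p = 0.383; rho 0.32, adjusted p = 0.612). Without the 2 libraries farthest from the median these were 0.46 and 0.52. Depth gave r of 0.07 for Alox15 and 0.12 for the red cell mean.

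ID control libraries of title number 70 were compared with those of 69 in a fit of these 9 alone. The choice of the 4 drew on these libraries too, so the values are a description. Slc4a1 was lower in number 70, at 8.09 CPM where number 69 had 17.4 CPM, a log2 difference of -1.11 (SE 0.18), and the 4 libraries of 70 all lay below the 5 of 69. It was the 1 of 4 called there by edgeR's quasi-likelihood test, against 33 of 15008 genes (0.22%). Hbb was at 407 against 611 CPM (-0.59), Alas2 at 16.0 against 25.5 CPM (-0.67) and Alox15 at 92.3 against 142 CPM (-0.62). Leaving out 1 library at a time, Slc4a1 was called in 2 of 9 fits, those without replicate 2 or replicate 5, with log2 fold changes of -1.18 to -0.92. DESeq2 called Slc4a1 and Alas2. With number 70 alone as ID control, the Slc4a1 value for ID control over IS control was -0.68, in place of 0.03.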

How the data were processed

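RNA sequencing reads of 1 hippocampus per pup were counted by the authors. Per the submitters' processing notes, reads were trimmed with Trimmomatic (version 0.40), inspected with FastQC, aligned with HISAT2 (version 2.1.0) and counted with featureCounts, and edgeR is also named, as are the builds Rnor_6.0 and mm10 without a role. The deposited values are raw counts per gene, with no normalization. Strand use and the treatment of reads that fit several places are not given in the sources used here.

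From these counts, edgeR (version 4.0.16) in R (version 4.3.3) was run with TMM scaling, filterByExpr by group (15439 of 32883 genes kept) and the quasi-likelihood F-test, with 1 coefficient per group over 32 libraries (28 residual degrees of freedom). Benjamini-Hochberg adjustment was made over all genes tested, and an adjusted p under 0.05 was called. Log2 CPM used a prior count of 2. Permutations were run in Python (version 3.11.15) with scipy (version 1.17.1). Hbb-bs and Hbbl1 were named through RefSeq from older identifiers. The smallest chi-square per gene between libraries of a group was 5.77, so none was a copy. The fit was tested on simulated data.

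The members and lists were chosen with earlier results of these data known. Named genes were the 4, the red cell list genes with counts, called genes of the other lists (up to 6 per comparison), and the 10 named genes most correlated with Alox15 in each of 2 ways. Of the genes this rule gave, 1 is not reported here. Alternatives were DESeq2 (version 1.42.0), its size factors, no count filter, the compared groups alone, the Y-linked level as a covariate, the second title number as a block, title number 69 or 70 alone, and removal of libraries. The earlier quasi-likelihood method of edgeR, the red cell mean without Ank1 and Sptb, and the settings of the Alox15 to Hbb ratio were chosen after seeing the data.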

Additional observations from a re-analysis of the deposited data

Results flagged for a closer look

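The same library was far above the rest of its group for all 4 genes in 3 groups. In IS control replicate 3 was highest, with 133.9 CPM of Alox15, 957.4 of Hbb, 32.1 of Alas2 and 28.8 of Slc4a1. In ID control replicate 2 was highest, with 227.2 CPM of Alox15, 892.4 of Hbb, 38.2 of Alas2 and 26.2 of Slc4a1. In IS insulin replicate 4 was highest, with 210.0 CPM of Alox15, 1142 of Hbb, 41.1 of Alas2 and 31.7 of Slc4a1, and a red cell mean of 3.14 on the log2 CPM scale. Each gap to the next library exceeded Dixon's limit, as did 16 of 44 group values tested. The limit was applied to CPM and read ratios on a linear scale, and to log2 CPM for the red cell mean alone. Chance puts about 1 group in 20 past that limit only where values are normally distributed, and the 4 genes are not independent. On the log2 scale such gaps are a smaller part of the range. For Alox15 in IS control they are 7.07 against 6.35, with a lowest library of 5.16. No excess over chance is read from the flags.

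Single ratios also stood apart. IS control replicate 5 had the lowest Alox15 reads per 100 Alas2 reads in its group, at 297. IS insulin replicate 2 had the highest Alox15 reads per 100 Slc4a1 reads, at 910. ID insulin replicate 6 had the highest Alas2 reads per 100 Hbb reads, at 6.27. Among the marker lists, the endothelial transporter gene Slco1a4 was called for the interaction of diet and insulin. Its value was -0.50 on the log2 scale (SE 0.12, adjusted p = 0.0324 in edgeR's quasi-likelihood test). Its means were 45.5, 53.3, 55.0 and 45.3 CPM in IS control, ID control, IS insulin and ID insulin.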

How the results depend on the processing

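Counts of called genes moved with the setting in 3 comparisons of the red cell list and between the title numbers. For ID insulin against ID control, 5 in the reported fit became 3 with the compared groups alone, 0 without ID insulin replicates 3 and 5, 0 with title number 69 alone and 2 with 70 alone, and were 4 to 7 with 1 library left out. For ID insulin against IS insulin, 1 became 3 by DESeq2, 0 without the count filter, 0 with the compared groups alone, 0 without ID insulin replicates 3 and 5, 2 with the Y-linked covariate, and 0 to 3 with 1 library left out. The interaction gave 1 by DESeq2 and 0 to 1 with 1 library left out. With title number 70 alone, Slc4a1 was -0.68 for ID control over IS control, 2.00 for ID insulin over ID control and 1.98 for the interaction. Between the title numbers, where edgeR called 1 of the 4 genes, DESeq2 called 2, and 0 to 1 were called with 1 library left out. The causes were not tested. Without ID insulin replicates 3 and 5, 4 weak correlations with other measures changed sign: Alox15 with the mitochondrial share (-0.13) and microglia (-0.072), and the red cell mean with choroid plexus (-0.0158) and neurons (0.0073).

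Libraries with the same second title number showed no clear pairing. The 40 same-numbered pairs had a mean correlation of 0.0119 (-0.195 to 0.250), against -0.00139 for pairs with different numbers. Of 32 libraries, 2 correlated best with their own number. A weak link between same-numbered libraries was not tested. As a replicate block the second title number gave 4 called red cell list genes for ID insulin against ID control. It gave 0 for ID insulin against IS insulin.

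The correlation of Alox15 with Hbb after removing group means stayed at 0.87 to 0.91 with any 1 library left out, and that with the red cell mean at 0.90 to 0.94. Within IS insulin alone, with 1 library left out, r was -0.14 to 0.96 with Hbb, 0.10 to 0.92 with Alas2 and 0.79 to 0.99 with Slc4a1. Genes under about 1 CPM, such as Trim10, rest on few counts.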
